A study of Mus musculus with 9 samples.

Results

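Leukaemic bone marrow cells at the ends of a sort were compared: CD43++ckit+ cells, which carried the most CD43 and carried c-Kit, against CD43-ckit- cells, which were sorted as lacking both. The members were the libraries labelled with those populations, 3 a side, which is 6 of the 9 RNA-seq libraries of the series. All cells came from the bone marrow of C57BL/6 mice aged 6 to 8 weeks with leukaemia of the AML1-ETO9a murine model. Both populations thus share the model and the strain, and no library is from healthy marrow. Whether every sorted cell carried the fusion is not given. The remaining 3 libraries, of CD43+ckit- cells, are not compared here. They entered the model to estimate the spread between libraries, and they also took part in the low-count filter and the scaling. How the leukaemia was started, how many mice were used and whether mice were pooled is not given in the sources used here. Nothing in the labels ties a library to an animal, so every p-value measures the spread between these libraries, which may be technical.

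AML1-ETO9a is a short splice form of the fusion between the DNA-binding part of RUNX1 (AML1) and the corepressor RUNX1T1 (ETO), the product of the t(8;21) translocation of acute myeloid leukaemia. CD43 (sialophorin, gene Spn) is a heavily glycosylated surface protein of leukocytes and early progenitors, and c-Kit (gene Kit) is the receptor for stem cell factor, which progenitors and early erythroid cells need and later lose. In the red cell lineage, progenitors first grow and divide under MYC and c-Kit. They then switch under GATA1 and TAL1 to making haem, iron transporters and a spectrin membrane skeleton, leave the cell cycle, expel the nucleus, and degrade their ribosomes and mitochondria.

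Interferon response genes and red cell genes were lower in CD43++ckit+ and ribosome-building genes were higher, with most members moving together (values further on), and for that reason their promoters are shown. Within the 250 bases upstream of the start, either strand was searched for 3 motifs. The interferon motif was GAAA, any 2 bases, GAAA, the core of the element that IRF proteins bind. The erythroid motif was AGATAA, to which the factor GATA1 binds, and the nucleolar motif was CACGTG, the E-box of MYC and related proteins. Sequences are from RefSeq, build GRCm38.p6. They run 5′ to 3′ on the gene's own strand, from 20 bases before the farthest motif to the last base before the start, with each motif in capitals. The sequences are of Isg15 (chr4:156200819-156200916, minus strand), Ifit1 (chr19:34640765-34640888, plus strand), Alas2 (chrX:150547311-150547416, plus strand) and Trim10 (chr17:36869391-36869573, plus strand), the 2 members of each list that had the largest decrease among those with a motif.
Isg15: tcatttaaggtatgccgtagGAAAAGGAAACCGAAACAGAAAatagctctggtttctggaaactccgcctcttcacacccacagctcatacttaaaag
Ifit1: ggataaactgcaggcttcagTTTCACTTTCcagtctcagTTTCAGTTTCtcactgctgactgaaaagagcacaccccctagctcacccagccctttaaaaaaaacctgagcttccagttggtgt
Alas2: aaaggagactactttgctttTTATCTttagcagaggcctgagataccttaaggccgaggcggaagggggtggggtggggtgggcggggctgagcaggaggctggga
Trim10: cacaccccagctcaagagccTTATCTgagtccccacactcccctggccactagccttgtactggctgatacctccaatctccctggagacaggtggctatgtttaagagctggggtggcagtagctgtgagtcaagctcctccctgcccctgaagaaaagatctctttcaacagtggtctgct
The Isg15 window holds 3 overlapping interferon motifs within 78 bases of the start, and the Ifit1 window holds 2. The starts are those of RefSeq. In GENCODE, another gene annotation, a transcript begins at that start for Isg15 and Trim10, but none does for Ifit1 and Alas2. Of 39 interferon list genes with a promoter in the table, 17 (43.6%) held the interferon motif, against 3.46% of all 27025 genes. A gene was counted if any of its promoters held the motif, so genes with several promoters had more chances. The erythroid motif was found for 6 of 35 haem and red cell membrane genes (17.1%) and for 11.4% of all genes. The E-box was found for 1 of 30 nucleolar genes (3.33%) and for 6.86% of all genes. That nucleolar gene is Rrn3, whose promoter is not printed. These are matches of letters and show neither binding nor use of a site.

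The sort markers were checked first. Values are CPM, read counts brought to a common library size by TMM, a method that levels most genes between libraries, given for libraries 1, 2 and 3. Kit stood at 176, 171 and 146 in CD43++ckit+ and at 18.9, 41.3 and 42.1 in CD43-ckit-. Spn stood at 555, 520.3 and 432 and at 71.7, 175 and 180.1. Every CD43++ckit+ library was above every CD43-ckit- library for both genes, and library 1 of CD43-ckit- was the lowest. The log2 fold change, CD43++ckit+ minus CD43-ckit- throughout, was 2.27 (SE 0.40, adjusted p = 0.000897) for Kit and 1.82 (SE 0.34, adjusted p = 0.00132) for Spn by edgeR's quasi-likelihood test. Both transcripts were thus still read in the libraries of cells sorted as negative for the proteins. Bulk RNA does not show which cells of those libraries carried them. The rows of the fusion partners differed by less than the test could call. Runx1 read 413, 348 and 173 against 245, 183 and 163 (log2 0.66, SE 0.29, adjusted p = 0.0663), with the third CD43++ckit+ library at the level of the other population. Runx1 was called higher without that library (log2 0.96, adjusted p = 0.00146) and without library 1 of CD43-ckit- (log2 0.86, adjusted p = 0.0483). Runx1t1 read 69.4, 57.7 and 48.6 against 76.2, 48.6 and 51.1 (log2 0.00), or 0.93 with library totals, which called it higher (adjusted p = 0.000232), and counts per gene cannot separate the fusion transcript from the mouse genes.

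The label calls the tissue bone marrow and names no lineage. Gata1, the master regulator of red cell genes, was read in every library of both populations, at 270.2, 279 and 302 in CD43++ckit+, against 946, 669.7 and 674 in CD43-ckit-. Ptprc, which encodes the common leukocyte antigen CD45, read 3.81, 1.83 and 26.3 in CD43++ckit+, against 36.1, 95.4 and 81.4 (log2 -2.73, SE 0.94, adjusted p = 0.0312). The progenitor antigen Cd34 read 0.742, 0.219 and 1.99 against 2.36, 5.96 and 7.75 (log2 -2.43, SE 0.77, adjusted p = 0.0193), and the receptor gene Flt3 0.563, 0.0547 and 1.52 against 1.34, 4.71 and 5.60 (log2 -2.43, SE 0.91, adjusted p = 0.0388). All 3 calls were lost with library totals, without library 1 of CD43++ckit+ and without library 3 of CD43-ckit-. Without library 2 of CD43-ckit- Ptprc and Flt3 were not called, and the same held for Ptprc without library 2 of CD43++ckit+ and for Flt3 without library 2 or 3 of CD43+ckit-. With the neutrophil list as a covariate Cd34 and Flt3 were not called, and with the 6 libraries alone or no low-count filter Ptprc and Flt3 were not, nor was Flt3 with the replicate block of 6 libraries. Mpo, the myeloperoxidase of early myeloid cells, read 37.8, 11.1 and 605 against 543, 846 and 859.7 (log2 -1.78) and was not called.

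Total counts were 28530150 to 31781746 for the CD43++ckit+ libraries and 17966197 to 21609537 for CD43-ckit-. The 10 most abundant genes took 4.29% to 4.80% of counts in CD43++ckit+, against 12.2% to 14.1% in CD43-ckit-, and TMM factors ran from 0.589 to 1.41. The median of all tested genes was 0.19 with TMM, -0.05 with DESeq2 size factors and 1.11 with library totals. Higher calls were 58.9%, 49.5% and 82.2% of all calls under those scalings, and 48.4% with DESeq2's own test. Counts of list members with library totals are given beside the lists where a count moved by more than 1.5 times and by at least 2 genes. Library 3 of CD43++ckit+ stood apart from the other 2 of its group. It carried 8035 summed CPM of neutrophil maturation genes, where libraries 1 and 2 had 542 and 186, and the CD43-ckit- libraries had 8207, 23757 and 23695. Mxd1, taken up below with the MYC network, is a member of that list. It made up a large part of the sum in library 1 of CD43-ckit-, but little of that in library 3 of CD43++ckit+. In bulk RNA, fewer cells of a type and less RNA per cell cannot be told apart. The 6 rows of the adult globin genes held 0 to 4 counts per library, and the enolase row Eno1 at most 1, and these rows are not used as levels.

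Of 12573 tested genes, 8471 (67.4%) were called at an adjusted p under 0.05. CD43++ckit+ was higher for 4989 (39.7%) and lower for 3482 (27.7%), and these are the shares against which the lists below are to be read. The libraries of the populations did not overlap for 9202 genes (73.2%). A test against a 2-fold change called 1698 genes higher (13.5%) and 1718 lower (13.7%), 3416 in all, and 5181 without library 3 of CD43++ckit+. With TMM, decreases were larger than increases: called decreases had a median of -1.87 and called increases of 1.22 on the log2 scale. Sizes of both shift with the scaling, and those in this paragraph are for TMM only. More than 8-fold differences were found for 725 called genes that were lower and 52 that were higher, and more than 32-fold differences for 165 and 4. A gene that passed the low-count filter only through the population where it is high had to differ, so counts of list members describe those tested, not all members.

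**Figure D1:**
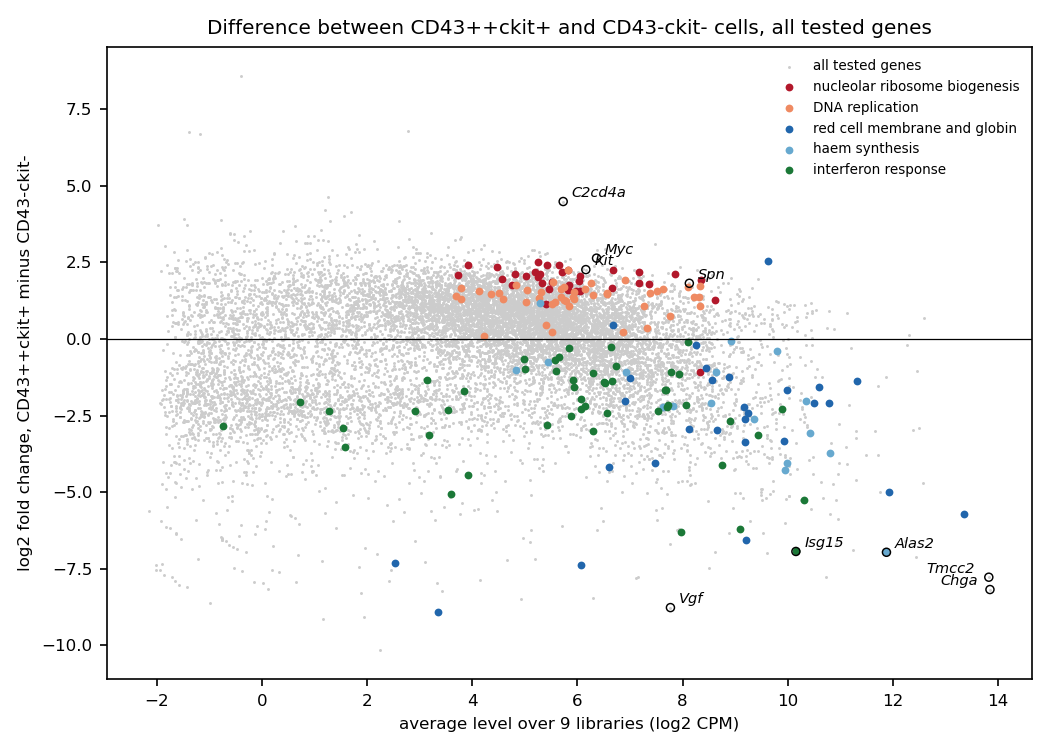
Each point is one of 12573 tested genes, with its average log2 CPM over 9 libraries on the x axis and its log2 fold change, CD43++ckit+ minus CD43-ckit-, on the y axis. Nucleolar and DNA replication genes lie above 0 with few exceptions, interferon genes lie below it, most red cell and haem genes do too, and Chga and Tmcc2 combine a high level with log2 fold changes of log2 -8.18 and log2 -7.78.

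**Figure D2:**
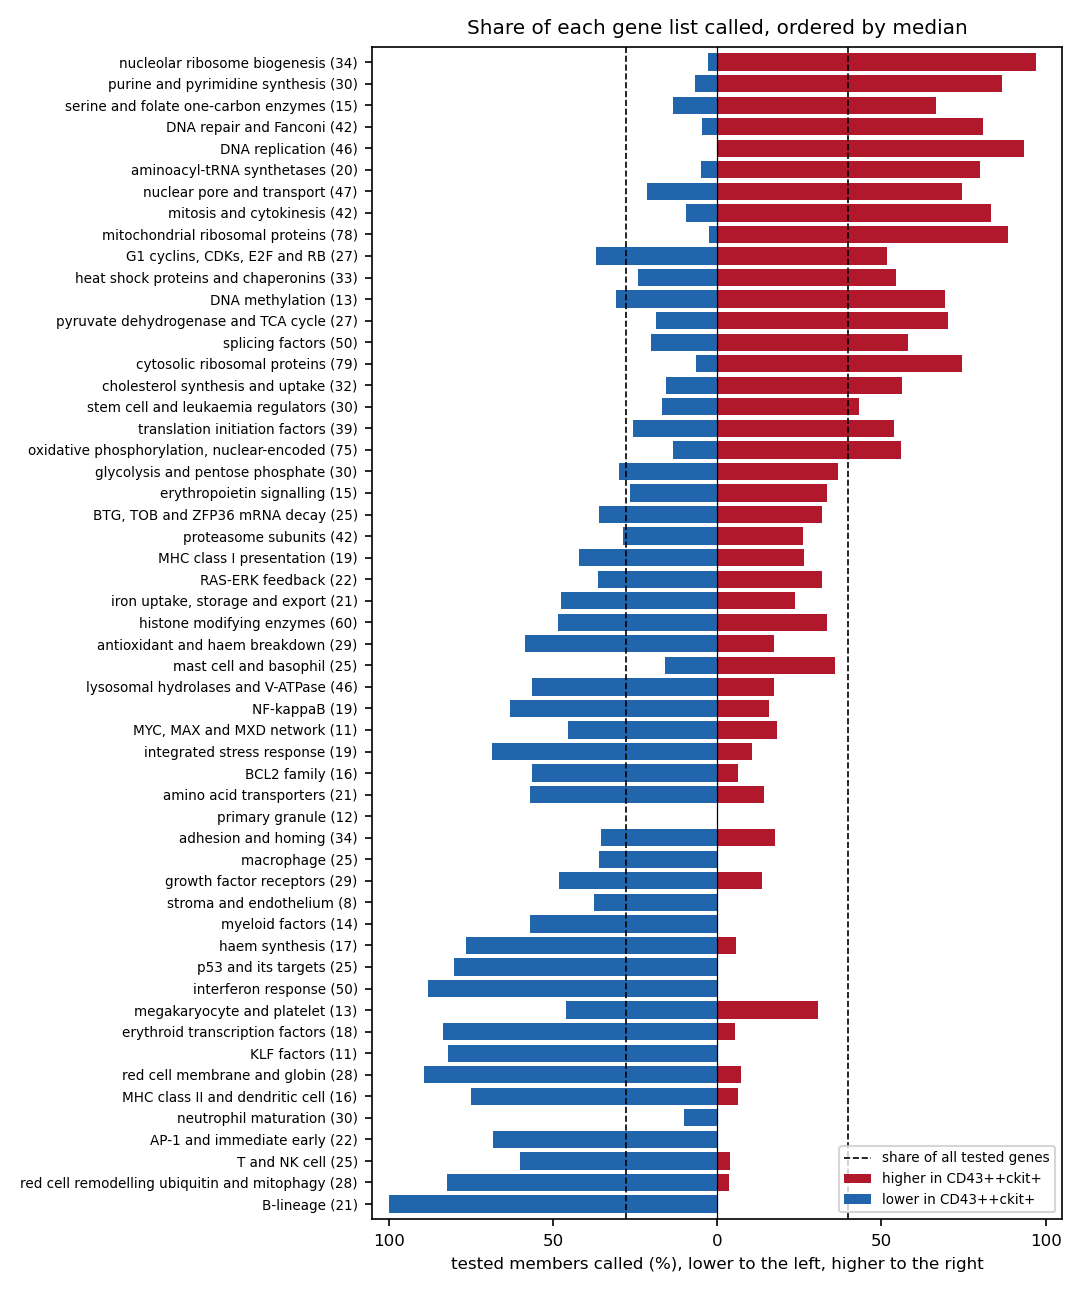
Bars give the percentage of tested members of each gene list (number tested in brackets) called higher in CD43++ckit+ (right, red) or lower (left, blue), with lists in order of their median. Dashed lines mark the shares over all tested genes, 39.7% higher and 27.7% lower, and the nucleolar list reaches 97.1% higher while the B-lineage list reaches 100% lower.

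Some regulators of growth were higher in CD43++ckit+, while most tested erythroid transcription factors were lower. Myc, which drives ribosome production and cell growth, read 201, 197 and 153 CPM in CD43++ckit+, against 15.2, 38.4 and 34.6 in CD43-ckit- (log2 2.64, SE 0.37, adjusted p = 0.000276). Mxd1, whose protein competes with MYC for the partner MAX, read 50.6, 47.8 and 110.0 against 3206, 2488 and 2034 (log2 -5.21, SE 0.39, adjusted p = 8.07e-06). All 3 libraries of one population lay beyond all 3 of the other in both genes, in opposite directions. Further antagonists were lower in CD43++ckit+ as well, Mxi1 (log2 -3.41) and Mxd4 (log2 -2.29). Of the 11 tested genes of the MYC, MAX and MXD network, 2 were called higher and 5 lower, with a median of -1.12 (4 higher and 4 lower with library totals). These shares were 18.2% and 45.5%, against 39.7% and 27.7% of all tested genes. Mxd1 is also a member of the neutrophil maturation list, so its level enters that list's sum and the covariate made from it. Library 3 of CD43++ckit+ was the highest of its group for Mxd1 and for the neutrophil list, whose part in this was not tested.

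Among stem cell and leukaemia regulators, 13 of 30 tested were called higher and 5 lower, with a median of 0.63 (19 higher and 1 lower with library totals). The higher share, 43.3%, was close to the 39.7% of all tested genes. The lower share was 16.7%, against 27.7%. The genes named next are single members. Myb, a transcription factor of dividing progenitors, read 281, 288 and 205 against 61.1, 79.6 and 77.2 (log2 1.83). Cdk6, a kinase that holds progenitors in cycle, read 62.5, 74.7 and 44.0 against 8.80, 14.8 and 14.2 (log2 2.26), and Wt1, a zinc-finger gene raised in many acute leukaemias, 86.6, 86.8 and 62.3 against 5.81, 11.4 and 14.1 (log2 2.91). Cbfb, whose protein is the obligate partner of RUNX proteins, was higher (log2 1.33), and so were Runx3 (log2 1.25) and Fli1 (log2 0.87). In each of these genes the third CD43++ckit+ library was the lowest of its group but above every CD43-ckit- library. Sox4 was lower (log2 -3.28; 1.41, 0.438 and 3.44 against 28.1, 12.0 and 11.6 CPM). The number of lower members rested on single libraries. It was 11 without library 3 of CD43++ckit+, 3 without its library 2 and 1 without its library 1, and 3 without library 3 of CD43+ckit-. Without library 2 or library 3 of CD43-ckit- it was 2 or 1.

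Erythroid transcription factors were mostly lower: 1 of 18 tested was called higher and 15 lower, with a median of -2.24 (3 higher and 14 lower with library totals). Gata1, whose values are given above, differed by -1.43 (SE 0.17, adjusted p = 0.000102) on the log2 scale. Tal1, its partner on DNA, read 356, 328 and 266 against 2014, 1394 and 1250.3 (log2 -2.29). Both factors were therefore well read in CD43++ckit+ too, and the difference was one of degree. Gata2, usually the factor of earlier progenitors that GATA1 replaces, was also lower in CD43++ckit+ (326, 246 and 183 against 1262, 902 and 789.6, log2 -1.97). Nfe2, which binds globin control regions with small MAF proteins, read 184, 175 and 180.1 against 2035, 1692 and 1560.1 (log2 -3.29, SE 0.17, adjusted p = 1.56e-06), and the MAF genes Mafk (log2 -3.67) and Mafg (log2 -3.36) were lower with it. Foxo3, a factor of late red cell maturation and antioxidant defence, read 113, 122 and 126 against 2147, 1376 and 1070.4 (log2 -3.67). Ldb1, which bridges TAL1 and LMO2 complexes, was the single member called higher (log2 0.51), a call that was lost under several alternatives, among them DESeq2 size factors and the neutrophil covariate. Members of the KLF family of zinc-finger factors followed the same direction: 9 of 11 tested were called lower, with a median of -2.27, the lowest being Klf6 (log2 -3.84) and Klf7 (log2 -3.02).

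**Figure D3:**
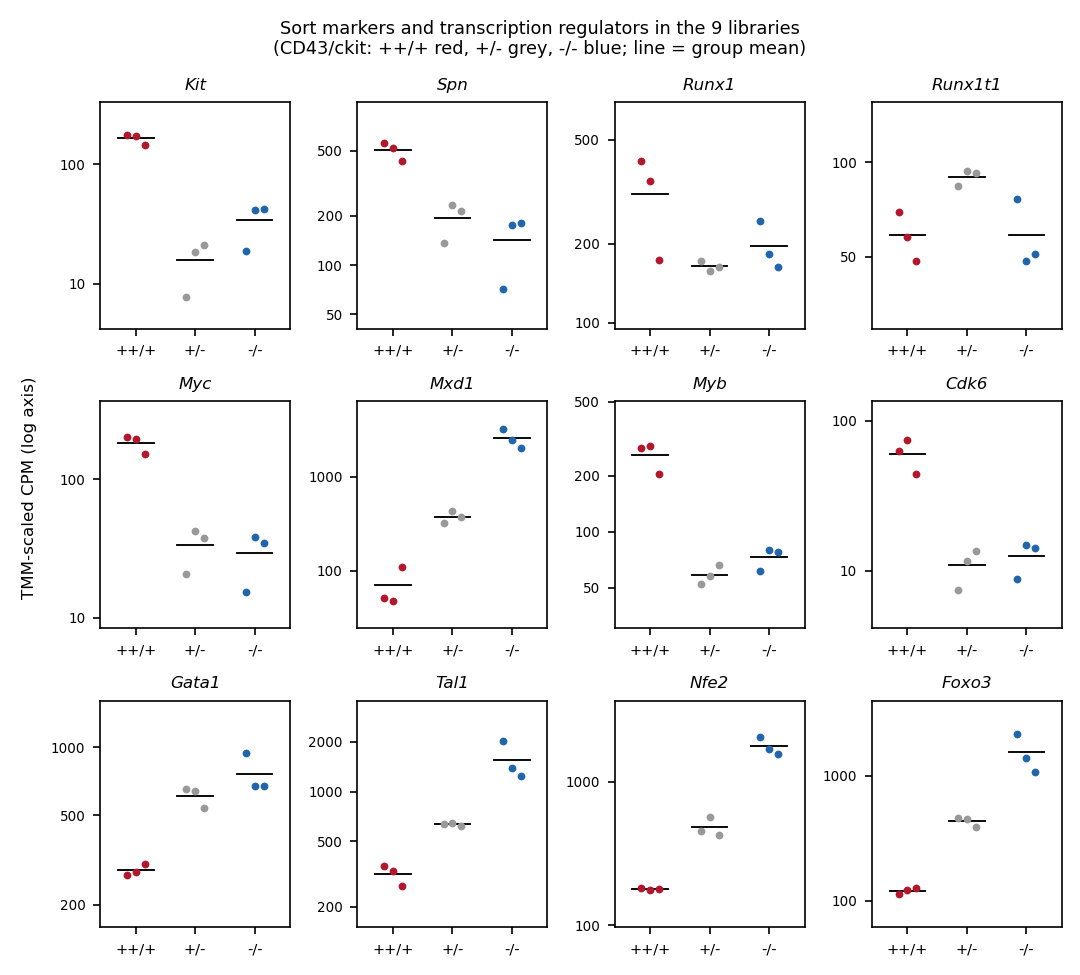
CPM of 12 genes on log axes in the 3 libraries each of CD43++ckit+ (++/+, red), CD43+ckit- (+/-, grey) and CD43-ckit- (-/-, blue), with the group mean as a line. Kit, Spn, Myc, Myb and Cdk6 are highest in the red group, Mxd1, Gata1, Tal1, Nfe2 and Foxo3 are lowest there, and Runx1t1 overlaps between red and blue.

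Haem synthesis is an 8-step path that starts and ends in the mitochondrion. Of 17 tested haem synthesis genes, 1 was called higher and 13 lower, with a median of -2.07 (3 higher and 10 lower with library totals). Alas2, the erythroid enzyme of the first step, read 49.3, 35.4 and 134 CPM in CD43++ckit+, against 11445, 8033 and 7886 in CD43-ckit- (log2 -6.97, SE 0.56, adjusted p = 1.36e-05). The third CD43++ckit+ library was the highest of its group and still far under every CD43-ckit- library. Of the middle steps, Urod differed by log2 -2.63 and Uros by log2 -2.21. Fech, which inserts the iron, read 288, 284 and 333 against 3426, 2180.1 and 2069 (log2 -3.08, SE 0.21, adjusted p = 5.48e-06). For Fech the CD43++ckit+ libraries lay close together, far under the others. Slc25a39 (log2 -4.28), a mitochondrial glutathione carrier, and Fam210b (log2 -4.04), a mitochondrial protein of red cells, were lower too.

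Iron genes were split. Of 21 tested iron uptake, storage and export genes, 5 were called higher and 10 lower, with a median of -0.42 (11 higher and 7 lower with library totals). Ftl1, the ferritin light chain, read 560.1, 552 and 689 CPM against 16853, 15712 and 14226 (log2 -4.70, SE 0.19, adjusted p = 1.4e-06), while the heavy chain Fth1 differed less (log2 -1.55). Tfrc, the transferrin receptor, read 173, 202 and 138 against 1308, 722 and 650.5 (log2 -2.39), and Slc25a37, the mitochondrial iron importer mitoferrin, 296, 279 and 337 against 5435, 2525 and 2616 (log2 -3.53). Higher in CD43++ckit+ were Steap3, the endosomal ferrireductase (169.8, 165 and 142 against 21.1, 44.1 and 49.3, log2 2.06), Tfr2 (log2 0.93) and Slc11a2, the endosomal iron transporter (log2 0.75). Glrx5, a glutaredoxin of iron-sulfur assembly, was lower (log2 -2.97).

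Of the red cell membrane and globin genes, 2 of 28 tested were called higher and 25 lower, with a median of -2.32. Slc4a1, the anion exchanger band 3, read 230.2, 178 and 812 CPM in CD43++ckit+, against 27753, 19073 and 17560.4 in CD43-ckit- (log2 -5.72, SE 0.62, adjusted p = 7e-05). Epb4.1, the membrane skeleton protein 4.1, read 315, 317 and 335 against 13395, 9666 and 7587 (log2 -4.99, SE 0.24, adjusted p = 1.48e-06). Dmtn, the actin bundler dematin, read 5.63, 5.14 and 32.6 against 1843, 1205 and 1070.5 (log2 -6.57). Band 3 and dematin were several-fold higher in the third CD43++ckit+ library than in the other 2, and protein 4.1 was level across the 3. Smaller decreases were found for the beta spectrin Sptb (log2 -2.08) and ankyrin Ank1 (log2 -2.08). The ubiquitin ligase gene Trim58 read 20.5, 26.7 and 23.4 against 530.1, 355 and 291 (log2 -4.06). Hbq1b, a theta-type globin gene, read 0.717, 0.383 and 1.85 against 207, 148 and 153 (log2 -7.39), and its near-identical copy Hbq1a had 3, 2 and 2 counts in CD43++ckit+, against 430, 435 and 406 in CD43-ckit-, so the share of reads between the copies is uncertain. Car1, an early red cell carbonic anhydrase, went the other way: 1704, 1630.1 and 933 in CD43++ckit+, against 155, 274 and 302 in CD43-ckit- (log2 2.55, SE 0.30, adjusted p = 0.000107). Its relative Car2 was lower (log2 -1.37).

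Late red cells remodel themselves through ubiquitin tagging and mitophagy, the removal of mitochondria. Of 28 tested remodelling and mitophagy genes, 1 was called higher and 23 lower, with a median of -2.81 (5 higher and 23 lower with library totals). Ube2o, the ubiquitin enzyme that clears ribosomal proteins in reticulocytes, read 132, 111 and 165 CPM in CD43++ckit+, against 16312, 12972 and 10399 in CD43-ckit- (log2 -6.60, SE 0.31, adjusted p = 1.46e-06). Ube2h read 41.5, 39.0 and 70.7 against 6968, 4795 and 3953 (log2 -6.70, SE 0.36, adjusted p = 1.9e-06), and the nuclear exporter Xpo7 84.6, 73.9 and 78.8 against 5283, 3252 and 2702 (log2 -5.57). All 3 genes differed by more than 32-fold, far beyond the spread within either population. Ulk1, the kinase that starts autophagy, was lower (log2 -3.88), as were Map1lc3b (log2 -3.46) and Bnip3l, the receptor that marks red cell mitochondria for removal (log2 -2.58). Atg5 was the only member called higher (log2 1.10). Tmcc2, which encodes a transmembrane coiled-coil protein, read 155, 124 and 281 CPM against 55447, 36914 and 30549 (log2 -7.78, SE 0.49, adjusted p = 3.34e-06) and took 2.81% of all CD43-ckit- counts. Slc2a1, the glucose transporter GLUT1, read 112, 79.1 and 136 against 18808, 14991 and 12280.4 (log2 -7.14, SE 0.41, adjusted p = 2.22e-06), and Bpgm, which makes the 2,3-bisphosphoglycerate that lowers oxygen affinity, 50.8, 43.2 and 77.0 against 8300.4, 6499 and 5325 (log2 -6.88).

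Erythropoietin signalling showed no common direction: 5 of 15 tested were called higher and 4 lower, with a median of 0.10 (9 higher and 3 lower with library totals). The receptor gene Epor read 112, 129 and 179 against 523, 413 and 382 (log2 -1.65). Stat5a, a signal carrier of the receptor, was higher in CD43++ckit+ (223, 205 and 171 against 30.4, 58.9 and 60.9, log2 1.99, SE 0.27, adjusted p = 0.000213), as was Stat5b (log2 0.91). Of the usual STAT5 targets, Socs2 was higher (log2 1.58), while Cish (72.7, 58.4 and 25.7 against 805, 606 and 524, log2 -3.63) and the kinase Pim1 (327, 244 and 152 against 6725, 4674 and 3877, log2 -4.40, SE 0.33, adjusted p = 8.68e-06) were lower.

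**Figure D4:**
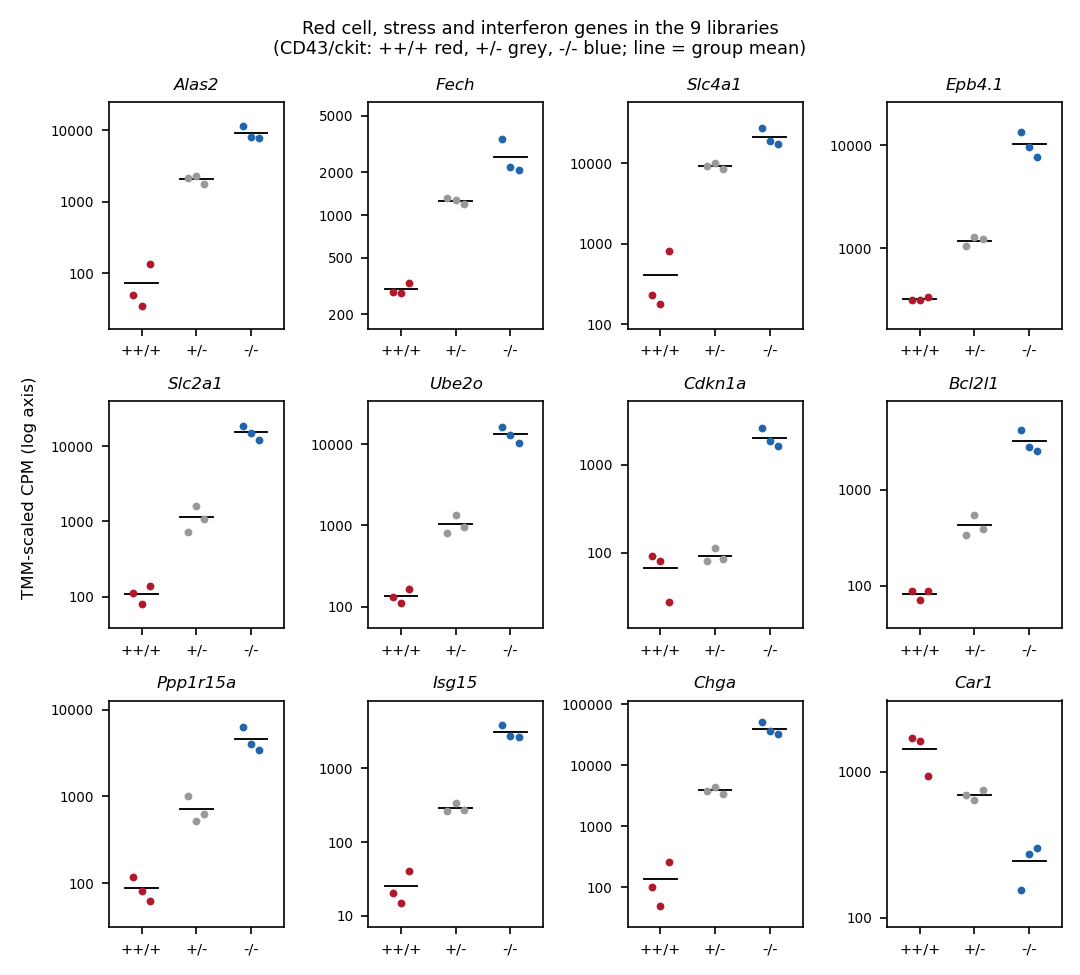
CPM of 12 genes on log axes in the libraries of CD43++ckit+ (++/+, red), CD43+ckit- (+/-, grey) and CD43-ckit- (-/-, blue), with the group mean as a line. The blue libraries are the highest for all genes shown except Car1, where the red libraries are the highest.

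Genes that build ribosomes were higher in CD43++ckit+. Of 34 tested nucleolar genes, 33 were called higher and 1 lower, with a median of 1.99. Npm1, a nucleolar chaperone, read 682, 754 and 453 CPM in CD43++ckit+, against 123, 189 and 188 in CD43-ckit- (log2 1.92, SE 0.24, adjusted p = 0.000146). Utp20, a part of the small-subunit processome, read 90.4, 93.6 and 57.0 against 9.98, 16.4 and 15.4 (log2 2.52), and Nolc1 241, 222 and 148 against 29.0, 50.9 and 48.2 (log2 2.25). The third CD43++ckit+ library was the lowest of its group in each of the 3 and lay above every CD43-ckit- library. The RNA polymerase I subunits Polr1a (log2 1.77) and Polr1b (log2 2.40) were higher, while Ubtf, the factor that opens ribosomal DNA, was the single lower member (log2 -1.07; its call was lost with library totals). Cytosolic ribosomal proteins shifted less: 59 of 79 tested were called higher and 5 lower, with a median of 0.72 (76 higher and the 5 lower calls lost with library totals). Rpl5 (log2 1.62), Rpl14 (log2 1.24) and Rps18 (log2 1.19) were among those higher. The lower count was 3 without CD43++ckit+ library 1 or 3 or CD43-ckit- library 3. Ribosomal protein genes have many processed copies, so their counts are uncertain.

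Initiation factors stood on both sides. Of 39 tested initiation factors, 21 were called higher and 10 lower, with a median of 0.50 (29 higher and 3 lower with library totals). Eif4e, which binds the mRNA cap, was higher (log2 1.35), as were Eif2b3 of the guanine nucleotide exchanger (log2 1.89) and Eif3e (log2 1.44). Lower were Eif5 (223, 206 and 159.6 against 2946, 2133 and 1844 CPM, log2 -3.56, SE 0.23, adjusted p = 3.82e-06), Eif1 (log2 -1.97) and Pabpc1, the poly(A)-binding protein (1528, 1668 and 1442 against 15362, 11685 and 9469, log2 -2.98). Aminoacyl-tRNA synthetases were mostly higher (16 higher and 1 lower of 20, median 1.14), with Kars at log2 1.96 and Nars, the exception, at log2 -1.58. Amino acid transporters were mostly lower (3 higher and 12 lower of 21, median -1.46; 7 higher and 9 lower with library totals). Slc3a2, the shared heavy chain of several transporters, read 171, 149.8 and 165 against 1267, 1065 and 921 (log2 -2.74), and Slc43a1, a leucine carrier, 133, 135 and 131 against 2376, 1806 and 1587 (log2 -3.85, SE 0.19, adjusted p = 1.48e-06). Slc7a1, the arginine and lysine carrier, was higher (log2 1.85), and the higher count was 1 without library 1 of CD43++ckit+.

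Genes of nucleotide supply were mostly higher in CD43++ckit+. Of 30 tested purine and pyrimidine synthesis genes, 26 were called higher and 2 lower, with a median of 1.64 (28 higher and the 2 lower calls lost with library totals). Cad, which starts pyrimidine synthesis, read 379.8, 406 and 379 CPM against 52.0, 101 and 106 (log2 2.17, SE 0.33, adjusted p = 0.000437), and Ppat, which starts purine synthesis, 83.1, 83.4 and 66.5 against 11.8, 20.2 and 20.8 (log2 2.14). Ctps, which makes CTP, was at log2 2.18. Of the serine and folate one-carbon enzymes, 10 of 15 tested were called higher and 2 lower, with a median of 1.49. Mthfd1, a folate enzyme of purine and thymidylate supply, read 668, 605 and 509.7 against 77.9, 148 and 149.9 (log2 2.25), and Psat1 of serine synthesis 301, 282 and 254 against 37.6, 81.6 and 89.9 (log2 2.0).

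Mitochondrial genes were higher in part. Of the mitochondrial ribosomal proteins, 69 of 78 tested were called higher and 2 lower, with a median of 1.10 (77 higher and the 2 lower calls lost with library totals), with Mrps2 at log2 2.06 and Mrpl12 at log2 1.76. The nuclear-encoded respiratory chain depended on scaling: 42 of 75 tested were called higher and 10 lower, with a median of 0.46. It had 28 higher and 17 lower with DESeq2 size factors and 71 and 1 with library totals. Atp5g2 of ATP synthase (log2 1.39) and Ndufb5 of complex I (log2 1.41) were higher under each of these scalings, and Ndufa11 of complex I was lower (log2 -1.76). Pyruvate dehydrogenase and TCA cycle genes were mostly higher (19 higher and 5 lower of 27, median 0.75; 22 higher and 1 lower with library totals). Idh3a, a subunit of the NAD-dependent isocitrate dehydrogenase, read 192, 198 and 162 against 27.5, 46.5 and 52.5 (log2 2.13). The pyruvate dehydrogenase kinases split, with Pdk1 higher (log2 1.54) and Pdk2 lower (30.7, 35.5 and 49.9 against 341, 235 and 227, log2 -2.79, SE 0.24, adjusted p = 1.9e-05).

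Glycolysis and pentose phosphate genes had no common direction: 11 of 30 tested were called higher and 9 lower, with a median of 0.29, 7 and 10 with DESeq2 size factors, and 17 and 5 with library totals. Ldha, which turns pyruvate into lactate, read 1021, 923 and 683 against 127, 297 and 321 (log2 1.82). Phosphofructokinases were higher, Pfkm at log2 1.85 and Pfkp at log2 1.58, whereas Pfkfb2, which makes their activator, was lower (log2 -1.67). Slc2a1, given above, fell on the other side of the list from these enzymes. Cholesterol genes were mostly higher (18 higher and 5 lower of 32, median 0.68; 23 higher and 3 lower with library totals). The late enzymes Dhcr7 (log2 1.8), Lss (log2 1.77) and Sqle (log2 1.65) were higher. Insig1, which retains the sterol sensor, was lower (log2 -1.65), and so was Mylip, a ligase for the LDL receptor (log2 -3.32).

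Of antioxidant and haem breakdown genes, 5 of 29 tested were called higher and 17 lower, with a median of -0.46 (15 higher and 9 lower with library totals). Gpx1, a glutathione peroxidase, read 1639, 1458 and 1502 CPM in CD43++ckit+, against 13084, 10572 and 11055 in CD43-ckit- (log2 -2.92, SE 0.16, adjusted p = 2e-06). Srxn1, a target of the stress factor NRF2, read 21.3, 22.1 and 23.2 against 408, 352 and 321 (log2 -4.02), and Nfe2l2, which encodes NRF2, 66.0, 72.9 and 65.7 against 346, 284 and 221 (log2 -2.06). Catalase (Cat, log2 -2.50) and peroxiredoxin 2 (Prdx2, log2 -2.16), abundant red cell enzymes, were lower. Hmox1, which breaks down haem, read 2.51, 1.29 and 12.6 against 309.8, 243 and 206 (log2 -5.52). The third CD43++ckit+ library had the highest Hmox1 of its group and was still under every CD43-ckit- library, while the other genes named here were level.

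Most cell cycle genes were higher in CD43++ckit+. Of 46 tested DNA replication genes, 43 were called higher, with a median of 1.41. Mcm4 of the replicative helicase read 177, 193 and 153 CPM against 30.6, 54.3 and 54.0 (log2 1.91, SE 0.27, adjusted p = 0.000284), Pcna, the sliding clamp, 411, 417 and 386 against 111, 174 and 179 (log2 1.39), and Cdc6, which loads the helicase, 109, 111 and 114 against 26.0, 44.4 and 49.8 (log2 1.48). Library 1 of CD43-ckit- was the lowest library in each of the 3. Of 42 tested mitosis and cytokinesis genes, 35 were called higher and 4 lower, with a median of 1.10. Top2a read 544, 594 and 442 against 121, 214 and 196 (log2 1.57) and Ccnb1, the mitotic cyclin, 139, 136 and 144 against 43.3, 62.8 and 65.8 (log2 1.29). Mitotic genes were nonetheless read in every CD43-ckit- library. Against the list, Cdc25b, a phosphatase that activates CDK1, read 727, 713 and 781 against 8187, 4848 and 4791 (log2 -3.0, SE 0.23, adjusted p = 1.07e-05), and Fzr1, which keeps cells in G1 through the anaphase-promoting complex, 121, 121 and 169 against 1306, 807 and 799 (log2 -2.83). Incenp was also lower (log2 -1.43).

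Of 27 tested G1 genes, 14 were called higher and 10 lower, with a median of 0.91 (18 higher and 6 lower with library totals). Cdk4 (191, 199 and 201 against 34.1, 74.4 and 90.4 CPM, log2 1.57), Ccnd2 (log2 1.44) and E2f1 (log2 1.40) were higher. Ccnd3, the D cyclin of red cell precursors, was lower (169, 149 and 244 against 1009, 744 and 759, log2 -2.16). E2f2 read 108, 119 and 207 against 4561, 3390.2 and 3009.9 (log2 -4.66, SE 0.30, adjusted p = 4.1e-06), with no overlap and opposite to E2f1. The CDK inhibitors Cdkn1b, which encodes p27 (81.9, 82.6 and 89.1 against 2007, 1479.7 and 1239, log2 -4.22, SE 0.20, adjusted p = 1.42e-06), Cdkn1a, which encodes p21 (92.5, 81.8 and 28.0 against 2588, 1868 and 1613, log2 -4.91), and Cdkn2d (log2 -3.12) were lower in CD43++ckit+. Repair genes were higher (34 higher and 2 lower of 42, median 1.45; 40 higher and the 2 lower calls lost with library totals), among them Xrcc5 of end joining (log2 2.30), Parp1 (log2 1.85) and the damage kinases Atm (log2 2.22) and Atr (log2 2.28).

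Chromatin genes were mixed. DNA methylation genes were called 9 higher and 4 lower of 13, with a median of 0.78 (9 higher and the 4 lower calls lost with library totals). The maintenance methyltransferase Dnmt1 read 561, 589 and 584 CPM against 110.4, 219 and 204 (log2 1.70, SE 0.23, adjusted p = 0.00022), and Dnmt3b, which methylates new sites, 22.7, 23.4 and 18.7 against 3.69, 4.71 and 7.68 (log2 2.01). Of the histone modifying enzymes, 20 of 60 tested were called higher and 29 lower, with a median of -0.45 (33 higher and 16 lower with library totals). Ezh2 and Ezh1, alternative enzymes of the Polycomb repressor, went opposite ways (log2 1.11 and log2 -1.82), as did the acetyltransferases Kat2a and Kat2b (log2 1.93 and log2 -1.58). Kdm7a (22.5, 22.7 and 26.2 against 493, 317 and 264, log2 -3.91, SE 0.31, adjusted p = 1.3e-05), a demethylase, Hdac5 (log2 -3.01), a deacetylase, and Kdm6b (162, 155 and 149 against 1254, 1034 and 886, log2 -2.77), a demethylase of the Polycomb mark, were lower. Hdac2 (log2 1.83) and the arginine methyltransferase Prmt5 (log2 1.96) were higher. Nuclear pore and transport genes were mostly higher (35 higher and 10 lower of 47, median 1.11; 38 higher and 3 lower with library totals), with Nup155 at log2 2.05, and Nup62 (151, 147 and 153 against 920.0, 826 and 728, log2 -2.45, SE 0.14, adjusted p = 2.06e-06) and Xpo7, given above, against them. Splicing genes followed (29 higher and 10 lower of 50, median 0.73; 43 higher and 2 lower with library totals), with Prpf19 at log2 1.64, while the splicing kinase Clk1 (103, 92.0 and 63.7 against 1439, 1002 and 834, log2 -3.66) and Srsf6 (log2 -1.74) were lower.

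Protein folding and disposal split as well. Of heat shock proteins and chaperonins, 18 of 33 tested were called higher and 8 lower, with a median of 0.83. The mitochondrial chaperones Hspd1 (420.2, 377 and 226 against 67.2, 88.4 and 85.2 CPM, log2 2.09) and Hspa9 (log2 1.78) and the chaperonin Cct2 (log2 1.38) were higher. The co-chaperones Dnajb2 (12.4, 10.9 and 17.6 against 615, 378 and 391, log2 -5.08, SE 0.28, adjusted p = 1.9e-06) and Dnajb1 (log2 -2.65) were lower. Proteasome subunits had no common direction and moved with scaling: 11 of 42 tested were called higher and 12 lower, with a median of -0.02, 5 and 20 with DESeq2 size factors, and 38 and 3 with library totals. Psme3, a nuclear proteasome activator, was lower under each (313, 312 and 272 against 2330.2, 1686 and 1533, log2 -2.63). Lysosomal genes were mixed (8 higher and 26 lower of 46, median -0.70; 17 higher and 11 lower with library totals). Lgmn, the protease legumain, read 4.15, 2.30 and 10.6 against 1153, 1060.1 and 867 (log2 -7.49, SE 0.68, adjusted p = 3.39e-05), and Ctsb, a cathepsin, 334, 312 and 410.4 against 4614, 3368 and 3146 (log2 -3.40). Gaa, the acid glucosidase, was higher (log2 1.54).

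Most stress response genes were lower in CD43++ckit+. The integrated stress response slows translation when eIF2 is phosphorylated, in red cells mainly by the haem-regulated kinase HRI. Of 19 tested integrated stress response genes, 2 were called higher and 13 lower, with a median of -1.27 (5 higher and 10 lower with library totals). Eif2ak1, which encodes HRI, read 146, 140.4 and 162 CPM in CD43++ckit+, against 2264, 1645 and 1409.6 in CD43-ckit- (log2 -3.57, SE 0.19, adjusted p = 1.9e-06). Atf4, its downstream factor, read 206, 182 and 168 against 1642, 1129 and 1074 (log2 -2.79), Atf5 17.7, 16.00 and 18.8 against 626, 477 and 427 (log2 -4.87, SE 0.20, adjusted p = 1.4e-06), and Ppp1r15a, which reverses the phosphorylation, 119, 81.6 and 62.4 against 6306, 3967 and 3434 (log2 -5.70). None of these overlapped between the populations. Gene counts of Atf4 do not measure its protein, which is set largely by translation. Asns, an ATF4 target of asparagine synthesis, was higher (816, 788 and 724 against 397, 350.0 and 401, log2 1.02), against the direction of Atf4, Trib3 (log2 -2.51) and Sesn2 (log2 -4.65).

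Immediate early genes rise within minutes of many stimuli, and 15 of 22 tested were called lower, with a median of -2.63 (3 higher and 11 lower with library totals). Junb read 132, 86.2 and 57.3 CPM against 2699.7, 2278 and 1836 (log2 -4.63, SE 0.37, adjusted p = 1.22e-05), Jund 235, 144 and 72.4 against 2791, 1808 and 1580.1 (log2 -3.77) and Egr1 6.81, 2.63 and 1.16 against 50.7, 31.1 and 34.7 (log2 -3.46). The CD43++ckit+ libraries differed among themselves by over 2-fold in all 3 genes and still lay under every CD43-ckit- library. Genes that shorten mRNA life showed no list-wide direction (8 higher and 9 lower of 25, median 0.02; 16 higher and 6 lower with library totals), but the antiproliferative members Btg2 and Tob1 and the decay factor Zfp36 were lower: Btg2 read 42.8, 29.3 and 47.7 against 1625, 1264 and 1072 (log2 -5.05, SE 0.26, adjusted p = 1.58e-06), Tob1 12.4, 11.0 and 18.1 against 371, 324 and 237 (log2 -4.49) and Zfp36 32.4, 22.5 and 29.8 against 916, 725 and 614 (log2 -4.74). Zfp36l2, a close relative that supports early red cell progenitors, was higher (log2 1.03). The decapping enzyme Dcp2 was higher as well (log2 1.29).

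Of p53 and its targets, 20 of 25 tested were called lower, with a median of -2.10 (3 higher and 13 lower with library totals). Mdm2, the p53 ligase and target, read 54.5, 60.9 and 43.8 CPM against 833, 588 and 469 (log2 -3.57, SE 0.23, adjusted p = 4.1e-06), Bbc3, which encodes the pro-death protein PUMA, 37.5, 37.1 and 47.0 against 1851, 1437 and 1145 (log2 -5.19, SE 0.32, adjusted p = 2.94e-06), and Trp53inp1 27.4, 33.9 and 27.4 against 982, 744 and 597 (log2 -4.71). Bax was lower too (log2 -2.10). In the BCL2 family, 1 of 16 tested was called higher and 9 lower, with a median of -1.38 (7 higher and 7 lower with library totals). Bcl2l1, the gene of BCL-XL, which keeps late red cells alive, read 88.4, 70.7 and 87.3 against 4193, 2793 and 2534 (log2 -5.27, SE 0.29, adjusted p = 1.9e-06), and Mcl1 differed by log2 -1.64. Bcl2l12 was the one member higher (log2 1.46).

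Interferon response genes encode antiviral proteins that interferons induce. Of 50 tested interferon response genes, 44 were called lower, with a median of -2.17 (3 higher and 29 lower with library totals). Isg15, a ubiquitin-like modifier, read 20.3, 14.7 and 40.7 CPM in CD43++ckit+, against 3915, 2770.0 and 2617 in CD43-ckit- (log2 -6.94, SE 0.44, adjusted p = 3.47e-06). Ifit1 read 5.43, 4.79 and 13.8 against 905, 537 and 464 (log2 -6.30), and Oasl2 10.5, 9.49 and 37.6 against 1941, 1273 and 1032 (log2 -6.20, SE 0.61, adjusted p = 5.15e-05). Library 3 of CD43++ckit+ was the highest of its group in all 3, and every library of the other population was more than 30-fold above it in Ifit1 and Isg15. Of the signalling genes, Irf7 read 32.9, 31.2 and 81.3 against 1135, 718 and 646 (log2 -4.10, SE 0.44, adjusted p = 6.6e-05), while Stat2 (log2 -1.41) and Irf9 (log2 -2.16) differed less. Usp18, which shuts the receptor down, was lower too (log2 -2.18). Ube2l6, which loads ISG15 and is also in the remodelling list, read 140.3, 119 and 165 against 3178, 2439 and 2379 (log2 -4.24). No interferon treatment is named in the labels.

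Of 19 NF-kappaB genes, 12 were lower and 3 higher, with a median of -0.80 (9 higher and 6 lower with library totals). The subunits themselves split: Nfkb1 was higher (172, 162 and 125 against 39.6, 65.8 and 68.2 CPM, log2 1.40), and Nfkb2 (58.8, 54.9 and 58.1 against 390.4, 283 and 265, log2 -2.45) and Relb (12.2, 9.11 and 10.3 against 156, 101 and 98.3, log2 -3.49, SE 0.22, adjusted p = 3.53e-06) of the alternative pathway were lower. The MHC class I list had 5 higher and 8 lower of 19, with a median of -0.05 (12 higher and 4 lower with library totals). The heavy chain H2-D1 read 134, 111 and 128 against 1246, 935 and 916 (log2 -3.05) and H2-K1 differed by log2 -1.26. Class I genes have close copies, so single members are uncertain. Calr and Canx, partner chaperones of class I folding, went opposite ways (log2 -1.88 and log2 1.43).

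At the cell surface, growth factor receptors were mixed: 4 of 29 tested were called higher and 14 lower, with a median of -2.01 (5 higher and 9 lower with library totals), with 23 lower without library 3 of CD43++ckit+. Csf2rb, the shared chain of the GM-CSF, IL-3 and IL-5 receptors, read 347, 267 and 165 CPM in CD43++ckit+, against 8633, 5284 and 4894 in CD43-ckit- (log2 -4.59, SE 0.34, adjusted p = 8.81e-06). Its close copy Csf2rb2 read 128, 78.6 and 58.8 against 7518, 4181 and 3773 (log2 -5.87), and reads cannot be divided between the copies with certainty. Beside Kit, the receptors higher in CD43++ckit+ were Il1rl1, the IL-33 receptor (782, 708 and 389.9 against 154, 170.0 and 146, log2 2.0, SE 0.24, adjusted p = 0.000126), Il2rg (log2 1.85) and Tgfbr2 (log2 1.12). Adhesion and homing genes were called 6 higher and 12 lower of 34, with a median of -1.71 (10 higher and 5 lower with library totals). Without library 3 of CD43++ckit+ 21 were lower. Podxl, a sialomucin of progenitors, read 502, 448 and 127 against 39.9, 39.9 and 46.4 (log2 3.09), and the integrins Itga6 (log2 2.16) and Itgb1 (log2 1.17) were higher. Cd24a, a surface protein of maturing blood cells, read 612, 535 and 583 against 6037, 4004 and 3865 (log2 -3.01, SE 0.21, adjusted p = 6.15e-06). Inhibitors of RAS signalling were mixed (7 higher and 8 lower of 22, median -0.09; 14 higher and 3 lower with library totals), with Spred1 (95.7, 89.6 and 38.4 against 11.2, 13.3 and 12.8, log2 2.58) and Spred2 (log2 1.46) higher and Ier3 (log2 -2.71) and Phlda1 (log2 -2.74) lower.

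Markers of other blood cells were measured beside these results. Of the 30 neutrophil maturation genes 3 were called lower, Mxd1 of the MYC network among them, with a median of -2.53 (1 lower with library totals). Without library 3 of CD43++ckit+ all 30 were. S100a8, an abundant neutrophil calcium-binding protein, read 84.0, 19.0 and 1192 CPM against 869.8, 3721 and 4445, and the third CD43++ckit+ library was above the first CD43-ckit- library. Primary granule genes ranged from 60.3 to 1395 summed CPM in CD43++ckit+, against 1187 to 2099 in CD43-ckit-, a median of -1.71 over 12 genes. With edgeR 0 of them were called, 0 were lower at an unadjusted p under 0.05, DESeq2's test called 2 lower, and 11 were lower in edgeR without library 3 of CD43++ckit+. Macrophage genes summed to 75.1, 60.1 and 248 CPM against 1823, 1616 and 1404, 9 of 25 lower (median -1.79), 2 lower with library totals, 25 without that library and 4 without library 1 of CD43++ckit+. Most of the macrophage sum in CD43-ckit- came from Lgmn and Hmox1, given above, whereas C1qa, a defining macrophage gene, read 2.10, 0.93 and 9.27 against 22.9, 8.77 and 8.68 and was not called. Myeloid factors were lower for 8 of 14 (median -2.05; 3 lower with library totals), for 14 without library 3 and for 5 without library 1 of CD43++ckit+. The part of these markers in the interferon, p53 and lysosome results was not tested. The interferon list had 45 lower calls without library 3 and 43 once the neutrophil list was a covariate, the p53 list 21 and 20, and the lysosome list 28 and 23. Other lists moved more with that covariate. The lower calls became 4 for T-cell and NK-cell genes, 3 for macrophage genes, 1 for neutrophil genes, 2 for mast cell genes, 2 for stem cell regulators and 3 for ribosomal proteins. The higher calls became 3 for erythropoietin signalling and 5 for mRNA decay genes. Medians became -0.36 for growth factor receptors, -0.21 for adhesion genes, -0.62 for myeloid factors, -0.28 for the MYC network and 0.09 for heat shock proteins. The MYC network shares Mxd1 with that covariate.

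B-lineage genes were all lower, 21 of 21 (median -3.46), at low levels: the list summed to 17.5, 7.74 and 56.1 CPM in CD43++ckit+, against 491, 199.6 and 241 in CD43-ckit-. Cd79a, a part of the B-cell receptor, read 1.69, 0.739 and 7.41 against 72.1, 29.1 and 34.5 (log2 -3.77, SE 0.89, adjusted p = 0.00552). MHC class II and dendritic cell genes, 12 of 16 lower (median -2.41), summed to 36.5, 28.8 and 94.7 against 340.0, 248 and 279 CPM. That count was 5 without library 1 of CD43++ckit+, 7 without library 2 or library 3 of CD43-ckit- and 1 with library totals. Of 25 T-cell and NK-cell genes, 15 were lower and 1 higher (median -2.71; 3 higher and 4 lower with library totals), 6 lower without library 1, 23 without library 3 of CD43++ckit+, and 6 or 7 without library 2 or 3 of CD43-ckit-. The T-cell receptor gene Cd3g had at most 24 counts in any library of either population. Lat, an adaptor shared by T cells, mast cells and megakaryocytes, was the member called higher (78.6, 72.5 and 45.0 against 6.13, 12.5 and 14.6, log2 2.56, SE 0.41, adjusted p = 0.000536). Stroma and endothelium genes stayed under 36 summed CPM in every library of both populations; 3 of 8 were lower (median -2.03), and 8 without library 3 of CD43++ckit+.

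Of mast cell and basophil genes, 9 of 25 tested were called higher and 4 lower, with a median of -0.53 (11 higher and 1 lower with library totals), with 12 lower without library 3 of CD43++ckit+ and 2 without CD43++ckit+ library 1 or 2 or CD43-ckit- library 3. Ms4a2, the beta chain of the IgE receptor, read 392, 351 and 139.8 CPM against 21.5, 44.2 and 40.7 (log2 3.05, SE 0.40, adjusted p = 0.0002). Hdc, which makes histamine, read 670.1, 567 and 399.8 against 102, 194 and 207 (log2 1.70, SE 0.31, adjusted p = 0.00102), and Tph1, which starts serotonin synthesis, 50.4, 43.5 and 9.80 against 3.77, 3.01 and 3.52 (log2 3.33). The granule protease gene Cpa3, which defines mast cells, read 2.18, 1.18 and 1.30 against 1.10, 3.27 and 2.15 and was not called, and Fcer1a, the alpha chain of the IgE receptor, 6.66, 4.57 and 1.03 against 0.55, 2.42 and 1.94, also not called. Ms4a2 and Hdc were thus well read while the carboxypeptidase and the alpha chain were near 0. Megakaryocyte and platelet genes were mixed (4 higher and 6 lower of 13, median -2.21; 4 higher and 3 lower with library totals). Gp5, a platelet glycoprotein, read 208, 201 and 164 against 17.4, 43.9 and 54.5 (log2 2.31, SE 0.37, adjusted p = 0.000563) and Gp1ba was higher (log2 1.66), while Itga2b (6.35, 5.77 and 7.15 against 54.0, 36.4 and 33.1, log2 -2.68) and Pf4 (log2 -2.21) were lower.

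**Figure D5:**
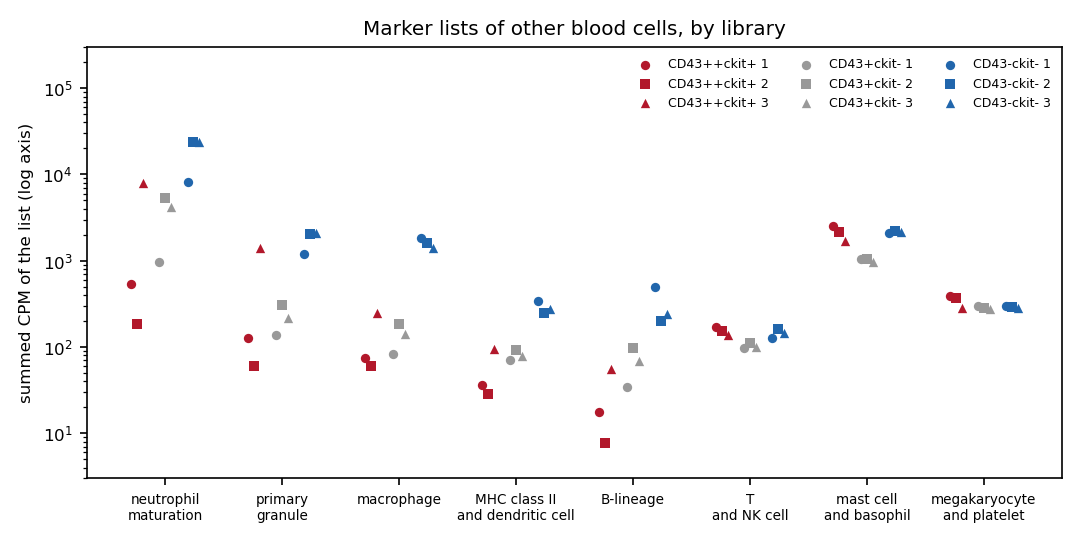
Summed CPM of 8 marker lists of other blood cells on a log axis, by library (circle, square and triangle for libraries 1, 2 and 3), in CD43++ckit+ (red), CD43+ckit- (grey) and CD43-ckit- (blue). The red triangle, library 3 of CD43++ckit+, lies above its group in the neutrophil, primary granule, macrophage, MHC class II and B-lineage lists, and the neutrophil list reaches 23757 CPM in CD43-ckit-.

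Some large decreases were in genes of no blood lineage list. Chga encodes chromogranin A, the core protein of neuroendocrine secretory granules. It read 102, 49.98 and 261 CPM in CD43++ckit+, against 50972, 36761 and 32546 in CD43-ckit- (log2 -8.18, SE 0.68, adjusted p = 1.62e-05), and took 2.76% of all CD43-ckit- counts. Vgf, another granule protein precursor, read 1.72, 0.985 and 1.70 against 773, 629 and 536 (log2 -8.77, SE 0.67, adjusted p = 1.21e-05). Most of the neuroendocrine list was too low to test, and only 4 of 23 genes passed the filter. Of these, 3 were called lower: Chga, Vgf and Ptprn, a receptor-type phosphatase of secretory granules. Ptprn read 0.0918 ± 0.0165 against 2.08 ± 0.703 CPM (SD, n = 3). The remaining tested member, at log2 -0.46, was not called. Scg2, Pcsk1 and Snap25 had 0 counts in every library. Among striated muscle genes, 10 of 30 were tested, 2 higher and 6 lower, with a median of -0.71 (4 higher and 3 lower with library totals). Acta1, skeletal muscle actin, had 2, 8 and 2 counts in the CD43++ckit+ libraries and 454, 531 and 363 in the CD43-ckit- libraries. Tnnc2, a fast troponin, read 0.333, 0.164 and 0.179 against 25.8, 23.1 and 17.9 CPM (log2 -6.60), and Actc1 and Myog had 0 counts in every library. Ptprn is named here after its values were seen.

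Other large decreases were Tecta, an inner ear matrix protein (0.307, 0.109 and 0.313 against 106, 88.6 and 78.2 CPM, log2 -8.50, SE 0.46, adjusted p = 1.9e-06), and Smtnl1, a smoothelin-like protein (0.384, 0.191 and 1.25 against 262, 226 and 183, log2 -8.47). Fam46c, a poly(A) polymerase gene now named Tent5c, read 16.8, 11.1 and 37.3 against 5953, 4568 and 3687 (log2 -7.77, SE 0.61, adjusted p = 1.18e-05). Gpd1, a glycerol phosphate dehydrogenase, read 1.41, 0.711 and 3.22 against 469.7, 398 and 329 (log2 -7.79), and Sertad1 6.89, 7.28 and 12.9 against 1131, 1246 and 1032 (log2 -6.97). In each of these the lowest CD43-ckit- library was over 30-fold above the highest CD43++ckit+ library.

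The largest increases were smaller and often weaker in the third CD43++ckit+ library. C2cd4a read 214, 170.4 and 31.9 CPM against 4.48, 6.87 and 7.11 (log2 4.49, SE 0.66, adjusted p = 0.000451). It was the largest increase among called genes without overlap whose average log2 CPM reached 3, predicted and clone-named genes left out. Tgfa, a ligand of the EGF receptor, read 26.3, 27.6 and 13.1 against 1.10, 2.68 and 2.22 (log2 3.47), and Arpp21 44.9, 33.7 and 12.6 against 2.36, 2.68 and 4.52 (log2 3.25). Slc22a3, an organic cation transporter, read 262, 249 and 160.0 against 16.6, 35.7 and 34.9 (log2 2.94, SE 0.38, adjusted p = 0.00017). Dmd, the dystrophin gene, read 30.6, 30.8 and 14.5 against 1.96, 4.52 and 2.94 (log2 3.0), and Fgfr1, a fibroblast growth factor receptor, 44.9, 39.2 and 26.7 against 2.28, 6.35 and 6.17 (log2 2.90). Inpp4b, a phosphoinositide phosphatase, was at log2 2.94, Cacna1c, a calcium channel, at log2 2.89 and Prkcq, a protein kinase C, at log2 2.70. The third library of CD43++ckit+ was the lowest of its group in all 9 of these genes. The largest changes were picked only among genes whose libraries did not overlap between the populations. That this library stayed above every CD43-ckit- library was therefore fixed by the choice of genes.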

How the data were processed

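Total RNA of 9 sorted libraries was prepared with an Illumina TruSeq RNA kit and sequenced on an Illumina HiSeq, per the labels. The authors deposited 1 table of whole-number read counts per gene, named by HTSeq. The submitters' processing notes list CASAVA 1.8, TopHat2 2.0.4, RSEM, HTSeq, edgeR and the build GRCh38, a human build, although the rows are mouse gene symbols, and the design text names BWA, TopHat and Cufflinks. The sources used here do not give which of these made the counts, the annotation, or whether strand was used, so overlapping or antisense genes and near-identical copies are uncertain.

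Of 24391 rows, 6162 held 0 in every library, and 12573 passed edgeR's low-count filter (minimum count 10, minimum total 15). edgeR 4.0.16 (R 4.3.3) fitted 3 group means to all 9 libraries with TMM scaling, and its robust quasi-likelihood test was adjusted by Benjamini-Hochberg over all tested genes at 0.05. Genes changed by more than 2-fold were tested with glmTreat. Named genes were chosen as the sort markers and fusion partners and the 10 most abundant genes of each population. The 25 largest called changes each way at an average log2 CPM of at least 3 were added. These were taken only among genes whose libraries did not overlap between the populations, without predicted or clone-named genes. Of each list, defining members and the 4 largest called changes each way at an average log2 CPM of at least 1 were named. The members and lists were chosen with earlier results of these data known. Ptprn was added after its values were seen. Alternatives were DESeq2 size factors, library totals, other low-count filters, DESeq2 1.42.0, the 6 compared libraries alone, a replicate block, the mean of the neutrophil list as a covariate and leaving out each library. Leaving out the least correlated library of each compared population was added after seeing the data. Promoters came from the RefSeq table of GRCm38.p6.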

Additional observations from a re-analysis of the deposited data

How the results depend on the processing

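The number of genes called ran from 7250 with the neutrophil list covariate to 9524 with the least correlated libraries left out (library 3 of CD43++ckit+ and library 1 of CD43-ckit-), and from 7366 to 9534 over the fits that left out 1 library. The number changed by more than 2-fold was 6296 with library totals, and 2544 to 5181 over the left-out libraries, the highest without library 3 of CD43++ckit+. Kit stayed called in every fit, at 1.99 to 2.45 over the left-out libraries, and Spn at 1.51 to 2.03. Of 234 named genes that were called, 229 kept their call and direction under every alternative. The exceptions are Cd34, Flt3, Ldb1, Ptprc and Ubtf.

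The labels number the libraries of each population 1 to 3, but same-numbered libraries did not all deviate together: the correlations of their deviations from the group means were 0.262, -0.318 and 0.252, and library 2 of CD43++ckit+ correlated best with library 1 of CD43-ckit- (0.348). The replicate block gave 8836 calls with 9 libraries and 7616 with 6, of which 3577 and 2389 were changed by more than 2-fold.

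Directions reversed for 4 named genes, and for 8 lists after the median of all genes was subtracted. Before subtraction, more list medians changed sign with library totals, where the median of all genes was 1.11. Among them were iron (-0.42 to 0.50), antioxidant (-0.46 to 0.46), histone modifying (-0.45 to 0.49), lysosomal (-0.70 to 0.21) and NF-kappaB genes (-0.80 to 0.15). After subtraction, 136 of 1064 values, in 52 of 56 lists, moved without reversing by at least the SD between libraries. Runx1t1 was 0.35 without the least correlated libraries, 0.93 with library totals, 0.12 with no low-count filter and 0.0069 with the replicate block, and -0.12 to 0.24 over the left-out libraries, being 0.027 and 0.13 without libraries 2 and 3 of CD43++ckit+, 0.013 without library 1 or 3 of CD43+ckit- and 0.24 without library 1 of CD43-ckit-. Runx1 was -0.11 and S100a8 0.096 with the neutrophil covariate, which removes neutrophil differences by construction, and Cpa3 was 0.36 with library totals. Medians of lists, less the median of all genes, reversed as follows. With no low-count filter, where the median of all genes was 0, they were 0.22 for erythropoietin signalling (-0.0906 in the reported fit), 0.025 for RAS-ERK feedback (-0.29), 0.093 for proteasome subunits (-0.22), 0.13 for mRNA decay genes (-0.18) and 0.067 for MHC class I (-0.24). With the neutrophil covariate they were 0.050 for erythropoietin signalling, -0.039 for heat shock proteins and 0.065 for the neutrophil list itself. Without the least correlated libraries they were -0.044 for glycolysis and 0.047 for mRNA decay genes. Glycolysis was -0.023 with the strict filter and -0.047 and -0.15 without library 1 of CD43++ckit+ or of CD43-ckit-, the latter also giving 0.015 for mRNA decay genes, and over the left-out libraries these lists ran from -0.15 to 0.15 and from -0.29 to 0.015. The cause was not tested.

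Totals of 17966197 to 31781746 counts limit genes of a few counts per library, for which single counts decide the fold.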
